A study of Homo sapiens with 45 samples.

Results

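The comparison described here is between PC3 cells transfected with a miR-203a precursor and PC3 cells transfected with a negative control precursor, called miR-NC. PC3 is a prostate cancer cell line derived from a bone metastasis. There were 3 arrays of each, 6 of the 45 arrays of the study, and they were chosen by the transfection named in their titles. The study measured messenger RNA on expression arrays in 3 cancer cell lines, PC3 and the ovarian cancer lines HEY and SKOV3. Each line has 5 groups of 3 arrays, labelled as untransfected or as transfected with miR-NC or with the precursor of miR-205, miR-429 or miR-203a. Precursors were delivered at 33 nM with a cationic lipid reagent, and RNA was extracted after 48 h. No genetic alteration of the cells is named, so the transfected PC3 groups differ by label in the precursor alone. Whether the 3 arrays of a group came from separate cultures is not given in the labels, so p-values measure the spread between arrays, which may be technical. All 54675 probe sets were considered. Of them, 41091 had 1 gene symbol, and 15599 genes were tested, each through its brightest probe set. A gene was tested if its mean in at least 1 of the 15 groups exceeded 4.89, the median of all values. Values are log2 intensities throughout, so a difference of 1 is a 2-fold change in signal.

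A microRNA is a short RNA that guides Argonaute proteins to messenger RNAs carrying a match to its seed, and pairing there lowers translation and often the amount of the message. In skin miR-203a is abundant in the differentiating layers and restrains the progenitor factor p63. In prostate cancer it has been described as low in metastatic cells and as a repressor of genes of the epithelial-mesenchymal transition and of bone metastasis. A precursor can give rise to either arm of the hairpin, and the labels do not name the arm. Both mature arms and the mature forms of the other transfected precursors' main strands are given because the seed, printed in capitals as bases 2 to 8, is what distinguishes the groups. All are RefSeq sequences on GRCh38.p14.
miR-203a-3p: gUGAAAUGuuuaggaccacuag
miR-203a-5p: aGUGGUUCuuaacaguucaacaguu
miR-205-5p: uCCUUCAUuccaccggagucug
miR-429: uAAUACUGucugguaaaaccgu
The 3p arm of miR-203a lies at chr14:104117469-104117490 and the 5p arm at chr14:104117431-104117455, both on the plus strand. The 4 seeds are all different. The sequence of the negative control was not used here.

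The control probe sets at the 5-prime end of the GAPDH and ACTB transcripts differed between the 2 groups, and every result below stands beside that difference. The 5-prime GAPDH probe set read 3.94, 4.89 and 6.29 on the miR-NC arrays and 10.37, 9.97 and 9.62 on the miR-203a arrays. The groups did not overlap, and their means were 4.95 apart (5.04 ± 1.18 against 9.99 ± 0.38, SD, n = 3 each). An exact two-sided permutation test gave p = 0.1, the smallest that 3 against 3 arrays allow. The 5-prime ACTB probe set read 4.22, 4.91 and 5.03 with miR-NC and 8.58, 8.57 and 8.18 with miR-203a, a difference of 3.73 with no overlap. The difference shrank toward the 3-prime end, to 4.06 at the middle GAPDH probe set and 2.01 at the 3-prime one, and to 3.17 and 0.23 for ACTB. In the other lines the 5-prime GAPDH probe set differed by 0.58 (HEY) and -0.0039 (SKOV3) between miR-203a and miR-NC. The PC3 miR-205 arrays, at 8.70 on average, lay closer to the miR-203a arrays than did those of miR-NC, while the PC3 miR-429 arrays were at 4.54. PC3 miR-205 was therefore used as another transfected PC3 group, and many changes are given against both. The miR-203a arrays still read 1.29 higher than the miR-205 arrays at the 5-prime GAPDH probe set. At the 5-prime ACTB probe set they read 0.99 higher, and the arrays overlapped at neither. All 18 E. coli and phage hybridization controls were lower on every miR-203a array than on every miR-NC array, by a median of 0.54. Whether RNA quality or labelling contributes to any change below was not tested. A fit with the 5-prime GAPDH value as a covariate, chosen with these values known, is quoted where it bears on a result. Of 139 genes checked in that fit, 66 kept their side of the threshold, 68 lost the call and 5 changed direction. The 66 include genes called in neither fit, whose direction was not compared. Of the 5, all but BANF1 lost the call as well. The covariate fit uses the relation between arrays within groups. No array of the 2 PC3 groups has a 5-prime GAPDH value within the range of the other group.

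**Figure D1:**
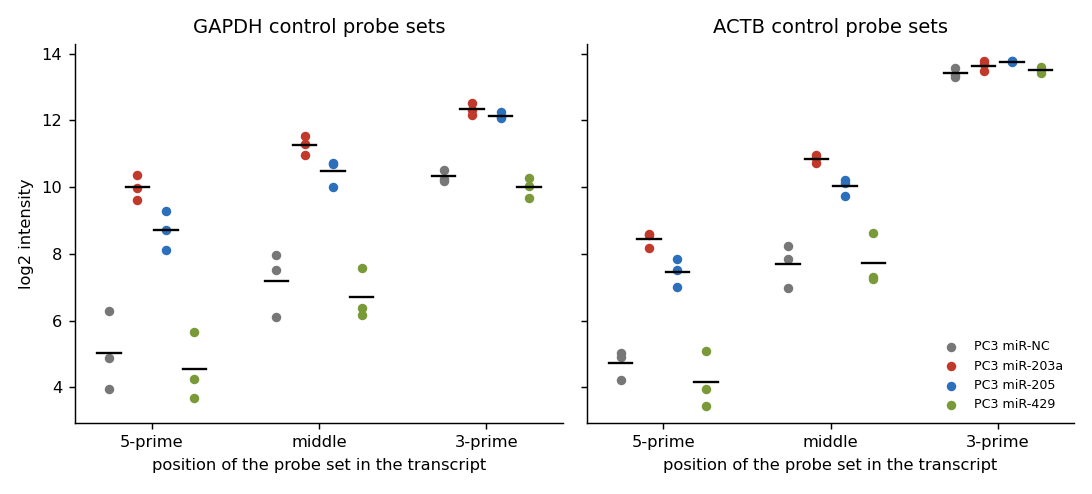
Log2 intensity of the GAPDH and ACTB control probe sets (vertical axis) at the 5-prime, middle and 3-prime position (horizontal axis) on each PC3 array. Points are arrays, coloured by transfection, and short bars are group means of 3 arrays. At the 5-prime GAPDH probe set the miR-203a arrays lie from 9.62 to 10.37 and the miR-NC arrays from 3.94 to 6.29.

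Arrays of a group were alike. Pearson correlations over all probe sets were 0.992 to 0.993 among miR-203a arrays and 0.981 to 0.988 among miR-NC arrays. Of the 10 genes written down as PC3 markers, 9 exceeded the median of all values in both groups. HOXB13, the homeobox factor of the prostate lineage, read 6.04, 6.37 and 7.26 with miR-NC and 8.38, 8.07 and 8.11 with miR-203a. It rose by 1.63 ± 0.23 (SE) without overlap, and changed by -0.08 with the covariate. CTNNA1, the alpha-catenin gene that PC3 has lost, was near the bottom of the scale in both groups (3.57 ± 0.68 and 3.52 ± 0.29, SD, n = 3). Of 6 blood cell markers 1 exceeded the median in either group, and the summed level of the 6 was 20.2 to 24.1 with miR-NC and 22.8 to 23.8 with miR-203a. PTPRC, the defining surface marker of white blood cells, was at 2.97 and 3.09. Of 11 fibroblast and endothelial markers, 7 exceeded the median with miR-NC and 5 with miR-203a, with sums of 67.0 to 69.9 and 61.4 to 63.0. Among them LUM, a matrix proteoglycan, read 9.13, 9.28 and 9.08 with miR-NC and 7.08, 7.0 and 7.45 with miR-203a, and fell by 1.99 ± 0.50 (SE, adjusted p = 0.000927, limma). The part of other cells in any result was not tested. In bulk RNA, fewer cells that express a gene and less RNA per cell cannot be told apart.

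The question of which genes respond to miR-203a in PC3 was put first to genes called by their HEY and SKOV3 arrays. The PC3 arrays entered that choice only through the shared estimate of spread, the signal threshold and the choice of probe set. In HEY 7.33% of genes were called lower with miR-203a than with miR-NC and 5.82% higher, and in SKOV3 4.88% and 7.06% (adjusted p under 0.05, limma with Benjamini-Hochberg adjustment over 15599 genes). Both lines shared 302 of the lower genes. In PC3, 224 of these 302 fell, which is 74.2%, beside 25.0% of all genes called lower in PC3. Another 21 rose (6.95%, beside 31.1% of all genes), and 57 were not called. The arrays of the 2 groups did not overlap, with miR-203a lower, for 232 of the 302, beside 29.0% of all genes. The median change of the 302 genes in PC3 was -0.72, against 0.056 for all genes. Against PC3 miR-205, 151 of the 302 were lower (50.0%, beside 12.9% of all genes) and 17 were higher (beside 11.9%), with a median of -0.40. With the 5-prime GAPDH covariate, 60 of the 302 were called lower and 0 higher, where 288 of all genes (1.85%) were called lower and 1041 (6.67%) higher, and the median of the 302 was -0.66.

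The genes that rose in the ovarian lines were followed in the same way. Of 331 genes higher with miR-203a in both HEY and SKOV3, 193 rose in PC3 (58.3%, beside 31.1% of all genes), 31 fell (9.37%) and 107 were not called. The arrays did not overlap, with miR-203a higher, for 214 of them, beside 33.6% of all genes. Their median change was 0.44, and their median span was 38.8 kb, against 27.2 kb for all genes tested. Against PC3 miR-205, 87 were higher (26.3%, beside 11.9%) and 32 were lower (9.67%, beside 12.9%), and the median was 0.13. With the covariate, 63 were called higher and 0 lower, and the median was 0.55. The PC3 comparison shares no arrays with the HEY and SKOV3 comparisons.

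**Figure D2:**
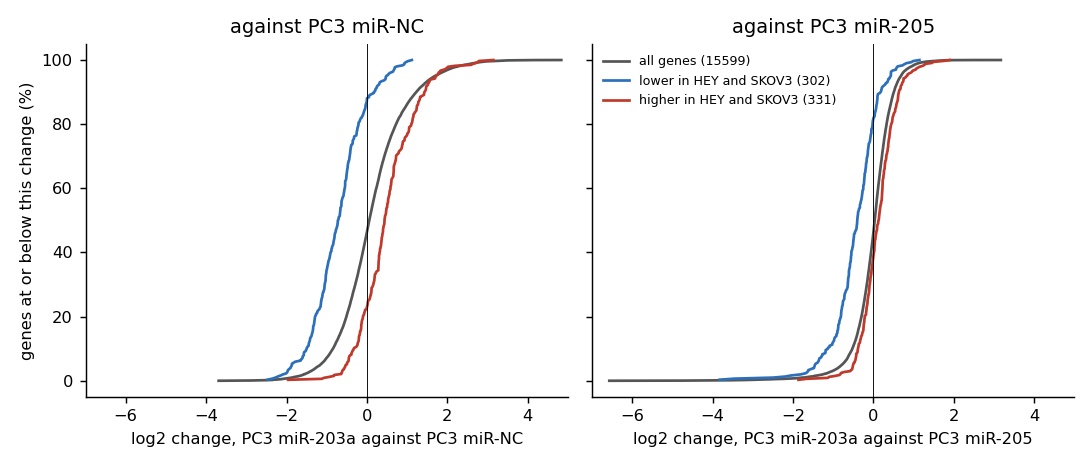
Cumulative share of genes (vertical axis, percent) at or below a log2 change (horizontal axis) in PC3, for miR-203a against miR-NC (left) and against miR-205 (right). Lines show all 15599 genes, the 302 genes lower with miR-203a in both ovarian lines and the 331 higher in both; the 302 lie to the left of all genes in both panels, with medians of -0.72 and -0.40.

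The 10 genes with the lowest mean change over HEY and SKOV3 are described one by one. RASSF6, a Ras-association domain protein linked to Hippo signalling, read 8.25, 8.33 and 8.26 on the PC3 miR-NC arrays and 5.97, 5.49 and 5.95 on the miR-203a arrays. It fell by 2.48 ± 0.18 (SE, adjusted p = 4.86e-14, limma) with no overlap, and by 2.05 against miR-205. SP4, a transcription factor of the Sp family, read 10.03, 10.27 and 10.01 with miR-NC and 7.69, 7.75 and 8.05 with miR-203a. It fell by 2.28 ± 0.15 (adjusted p = 5.63e-15), again without overlap, and by 1.20 against miR-205. LOX, the lysyl oxidase that cross-links collagen, read 6.04, 6.18 and 6.26 with miR-NC and 4.14, 4.19 and 4.33 with miR-203a. All 3 miR-203a arrays lay below the median of all values, and the fall was 1.94 ± 0.30 (adjusted p = 1.03e-06) and 1.69 against miR-205. Of the 3 LOX probe sets 1 was called, and the mean of the 3 changed by -0.69, which missed the threshold (adjusted p = 0.0584).

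MAP3K20, a kinase that senses stalled ribosomes, read 11.18, 11.17 and 11.13 with miR-NC and 9.20, 9.14 and 9.53 with miR-203a. The groups were far apart and MAP3K20 fell by 1.87 ± 0.13 (adjusted p = 3.58e-14), yet of its 7 probe sets 4 were lower and 2 were higher. FRK, a kinase related to SRC, read 8.97, 9.05 and 9.02 with miR-NC and 7.24, 7.27 and 7.61 with miR-203a. It fell by 1.64 ± 0.17 (adjusted p = 5.35e-10) on both of its probe sets, while its difference of -0.41 from miR-205 was not called (adjusted p = 0.0860). S1PR1, a receptor for sphingosine-1-phosphate, read 7.24, 7.12 and 6.99 with miR-NC and 5.88, 5.69 and 5.96 with miR-203a. The groups were again apart, with a fall of 1.27 ± 0.15 (adjusted p = 1.04e-08) and of 1.55 against miR-205.

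SCEL, the sciellin of the cornified envelope of skin, read 8.68, 8.17 and 8.07 with miR-NC and 6.95, 7.28 and 6.99 with miR-203a. It fell by 1.24 ± 0.32 (adjusted p = 0.00125) without overlap. MSI2, an RNA-binding protein of the Musashi family, read 10.93, 11.29 and 11.19 with miR-NC and 9.93, 10.03 and 10.09 with miR-203a. It fell by 1.12 ± 0.17 (adjusted p = 7.3e-07), but 2 of its 9 probe sets were higher and 3 lower. Without the probe sets whose names end in x_at or s_at the chosen one changed by 0.48. The difference of MSI2 from miR-205, -0.34, was not called (adjusted p = 0.153). IFIT1, an interferon-induced protein that binds viral RNA, read 9.54, 9.51 and 9.05 with miR-NC and 9.43, 9.15 and 9.66 with miR-203a. These arrays overlapped and the difference was 0.049 (adjusted p = 0.900), while IFIT1 was 2.30 lower in HEY and 1.43 lower in SKOV3. KCTD4, a potassium channel tetramerization domain protein, lay between 2.64 and 3.58 on all 6 PC3 arrays, below the median of all values, and was not called (-0.21, adjusted p = 0.497). So 8 of these 10 genes fell in PC3, beside 25.0% of all genes. With the covariate LOX, MAP3K20, FRK, SP4, RASSF6 and MSI2 were still called lower, beside 1.85% of all genes. Their changes in that fit went from -2.45 (LOX) to -1.32 (MSI2), while SCEL (-0.20) and S1PR1 (-0.88) were not called.

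The 5 genes with the highest mean change over the ovarian lines all rose in PC3 as well, beside 31.1% of all genes. FZD5, a Wnt receptor, read 8.06, 7.53 and 7.66 with miR-NC and 8.94, 9.03 and 8.97 with miR-203a. It rose by 1.23 ± 0.14 (adjusted p = 1.57e-09) without overlap, but it was 8.94 with miR-205 too, a difference of 0.04 (adjusted p = 0.878). MGAT4A, an enzyme that branches N-linked glycans, read 7.56, 7.38 and 7.26 with miR-NC and 8.44, 8.70 and 8.51 with miR-203a. Its rise of 1.16 ± 0.19 (adjusted p = 2.13e-06) was matched by one of 1.15 against miR-205 (adjusted p = 1.27e-05). COMMD10, a subunit of the Commander trafficking complex, read 7.94, 7.85 and 7.56 with miR-NC and 8.66, 8.85 and 8.97 with miR-203a, and rose by 1.04 ± 0.17 and by 0.45 against miR-205. These 3 were still called higher with the covariate, beside 6.67% of all genes. ITGB8, the integrin subunit that activates latent TGF-beta, rose by 0.97 ± 0.30 and PKIA, an inhibitor of protein kinase A, by 1.32 ± 0.49. Neither was called against miR-205 (-0.0032 and -0.25), and the call for PKIA was lost without miR-203a array 3 (adjusted p = 0.0531) or miR-NC array 3 (adjusted p = 0.0600).

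**Figure D3:**
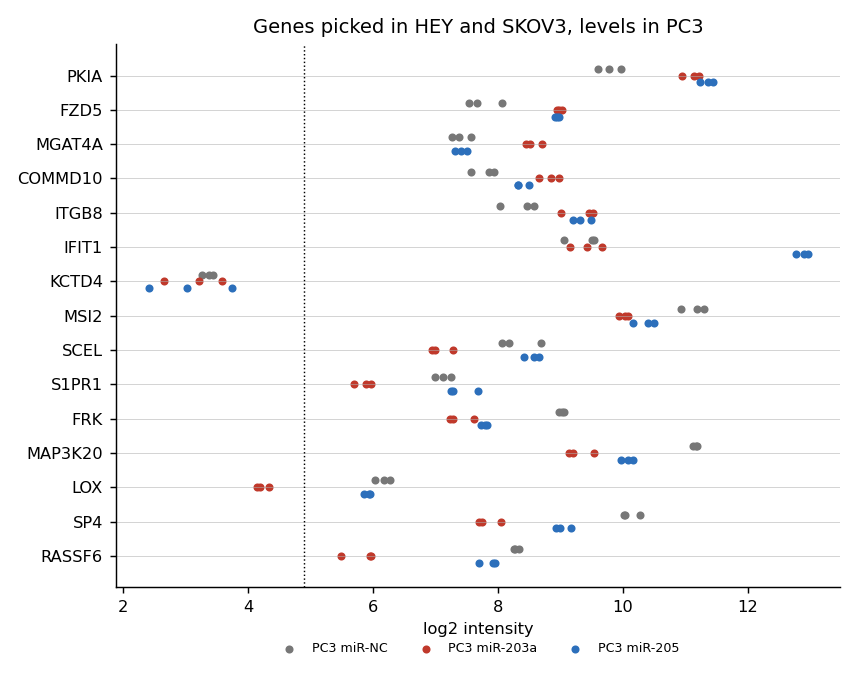
Log2 intensity (horizontal axis) in PC3 of the 10 genes most lowered and the 5 most raised by miR-203a over HEY and SKOV3 (vertical axis, ordered by their PC3 change). Each point is an array, coloured by transfection, and the dotted line is the median of all values, 4.89. For RASSF6, SP4, LOX, SCEL, S1PR1, MAP3K20, FRK and MSI2 the miR-203a arrays lie below all miR-NC and miR-205 arrays, while for IFIT1 the miR-205 arrays stand apart. The differences of FRK and MSI2 from miR-205 were not called.

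Genes described as direct targets of miR-203a were followed as a list of 30 written from general knowledge, of which 27 were tested. In PC3 10 fell (37.0%, beside 25.0% of all genes), 5 rose (18.5%, beside 31.1%) and 12 were not called, and the median change was -0.23. The PC3 arrays did not overlap, with miR-203a higher, for 6 of the 27, and with it lower for 14, beside 33.6% and 29.0% of all genes. Against miR-205, 9 were lower (33.3%, beside 12.9% of all genes) and 1 was higher (3.70%, beside 11.9%). Among the 9, SRC, RAPGEF1, SOCS3 and EIF5A2 were not called lower against miR-NC. In HEY 6 were lower, beside 7.33% of all genes, and in SKOV3 10, beside 4.88%.

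Among the transcription factors of the list, SNAI2 (Slug), a repressor of epithelial genes, read 10.26, 10.24 and 10.19 with miR-NC and 8.92, 9.15 and 9.37 with miR-203a. It fell by 1.08 ± 0.27 (adjusted p = 0.000988) without overlap, and changed by -0.76 against miR-205. It was called in SKOV3 (-1.30) and not in HEY (-0.63). ZEB2, another repressor of E-cadherin, read 8.06, 8.44 and 8.44 with miR-NC and 6.69, 6.75 and 7.27 with miR-203a. Its fall of 1.41 ± 0.14 (adjusted p = 2.22e-10) was the largest of the list and was still called with the covariate (-1.37), and it was 0.91 lower than with miR-205. Without the probe sets whose names end in x_at or s_at, ZEB2 changed by -0.67 and missed the threshold (adjusted p = 0.0567). RUNX2, the bone-lineage factor active in bone-metastatic prostate cells, read 11.53, 11.56 and 11.55 with miR-NC and 10.50, 10.35 and 10.65 with miR-203a. It fell by 1.05 ± 0.14 (adjusted p = 7.77e-08) on 3 of 4 probe sets and changed by -1.13 against miR-205, -0.56 in HEY and -1.07 in SKOV3. E2F3, CREB1 and ZNF217 were not called (-0.07, -0.23 and -0.12).

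LASP1, an actin-binding scaffold protein, read 11.18, 10.86 and 11.05 with miR-NC and 10.25, 10.29 and 10.14 with miR-203a. It fell by 0.80 ± 0.13 (adjusted p = 1.36e-06) without overlap, and was lower by 0.92 against miR-205, by 1.00 in HEY and by 1.66 in SKOV3. ASAP1, a GTPase-activating protein of focal adhesions, fell by 0.51 ± 0.11 and CAV1, the coat protein of caveolae, by 0.41 ± 0.15. CAV1 lost its call without miR-203a array 1 (adjusted p = 0.0647) or miR-NC array 1 (adjusted p = 0.0637). RAC1, the GTPase of lamellipodia, was at 12.34 with miR-205 and differed by 0.0065 between miR-203a and miR-NC. The axon guidance receptor ROBO1 was lower by 0.50 and missed the threshold (adjusted p = 0.0567), though its arrays did not overlap.

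The signalling genes of the list were divided. EREG and TGFA, ligands of the EGF receptor, fell by 1.03 ± 0.37 and 0.57 ± 0.12. EREG was 0.29 higher than with miR-205, a difference that was not called. VEGFA, the angiogenic growth factor, fell by 0.69 ± 0.19, though 2 of its 4 probe sets were higher and 1 lower, and PRKCA, a protein kinase C, fell by 0.68 ± 0.16 with 1 probe set each way. Against miR-205 VEGFA was lower by 0.89 and PRKCA higher by 0.69 (adjusted p = 0.00105). SRC, the founding member of its kinase family, read 4.66, 4.68 and 5.04 with miR-NC and 5.29, 4.62 and 5.36 with miR-203a. The groups overlapped and SRC was not called (0.30 ± 0.25, adjusted p = 0.314), while on the miR-205 arrays it averaged 6.37, which put miR-203a 1.28 lower (adjusted p = 0.000169). RAPGEF1, an exchange factor for RAP1, read 5.12, 4.78 and 4.88 with miR-NC and 5.57, 5.75 and 5.54 with miR-203a. It rose by 0.69 ± 0.22 against miR-NC and was 0.63 lower than with miR-205 (adjusted p = 0.0343), where the mean was 6.25. It was lower with miR-203a by 0.95 in HEY and by 1.87 in SKOV3.

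BANF1, a chromatin-binding protein of the nuclear envelope, read 7.70, 8.37 and 8.90 with miR-NC and 9.96, 9.68 and 9.32 with miR-203a. Its rise of 1.33 ± 0.24 (adjusted p = 1.52e-05) was the largest of the list, it did not differ beyond the threshold from miR-205 (0.21, adjusted p = 0.579), and with the covariate its change was -1.27 and called lower. PLD2, a phospholipase, rose by 1.00 ± 0.18, and the kinases AKT2 and ABL1 rose by 0.63 ± 0.18 and 0.48 ± 0.18. ABL1 lost its call without miR-203a array 2 (adjusted p = 0.0599) or miR-NC array 1 (adjusted p = 0.135), and AKT2 has 1 probe set in each direction among 5. SOCS3, a brake on cytokine signalling, was 0.40 lower without a call against miR-NC and 0.89 lower against miR-205 (adjusted p = 0.00353). EIF5A2, a translation factor, was 0.17 lower without a call and 1.10 lower against miR-205 (adjusted p = 1.99e-07). The miR-205 arrays were themselves higher than the miR-NC arrays for EIF5A2, by 0.93 (adjusted p = 1.18e-06, limma). BIRC5, an inhibitor of apoptosis, IRS1, an insulin receptor substrate, CKAP2, a spindle protein, and DKK1, a Wnt antagonist, were not called, with changes of 0.58, -0.08, -0.23 and -0.23. With the covariate 2 of the 27 were called lower, ZEB2 and BANF1, and 1 higher, PLD2, beside 1.85% and 6.67% of all genes.

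**Figure D4:**
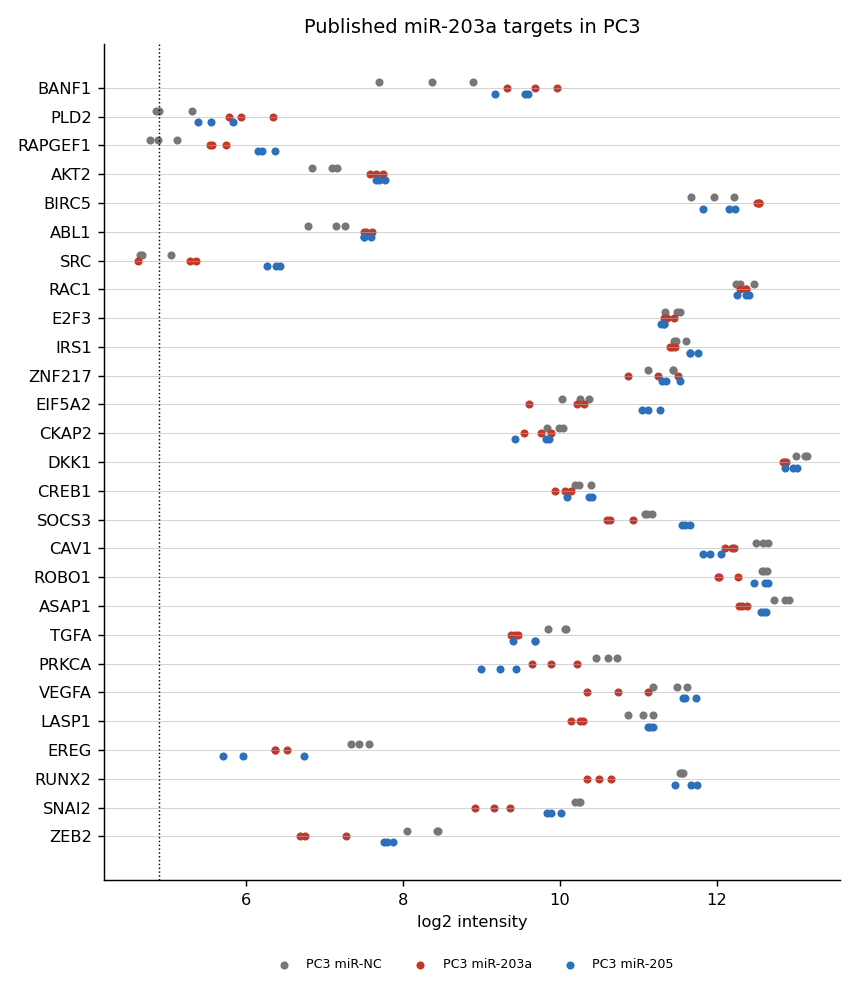
Log2 intensity (horizontal axis) in PC3 of the 27 tested published targets of miR-203a (vertical axis, ordered by their change against miR-NC). Each point is an array, coloured by transfection, and the dotted line is the median of all values, 4.89. All 3 miR-203a arrays lie below all miR-NC and miR-205 arrays for ZEB2, SNAI2, RUNX2 and LASP1, and between the other groups for RAPGEF1.

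The epithelial-mesenchymal transition is the programme in which carcinoma cells lose junctions and gain motility, and its core genes were taken as a list of 16, of which 15 were tested. Of these 7 fell (46.7%, beside 25.0% of all genes) and 2 rose (13.3%, beside 31.1%), and the median was 0.058. The sign of that median changed under some choices of probe set. The PC3 arrays did not overlap, with miR-203a higher, for 6 of the 15, and with it lower for 7, beside 33.6% and 29.0% of all genes. On the repressor side ZEB1 read 10.75, 11.13 and 10.9999 with miR-NC and 9.57, 9.74 and 9.72 with miR-203a. It fell by 1.28 ± 0.13 (adjusted p = 2.41e-10) on 3 of 4 probe sets and was still called with the covariate (-1.31), while it was 0.31 lower than with miR-205 without a call (adjusted p = 0.0856). The miR-205 arrays were themselves lower than the miR-NC arrays for ZEB1, by 0.98 (adjusted p = 1.04e-07, limma). For ZEB2 they were lower by 0.50 (adjusted p = 0.00365, limma). ZEB2 and SNAI2 fell as described above. TWIST1, a repressor of E-cadherin, fell by 0.40 ± 0.15, a call lost without miR-203a array 1 (adjusted p = 0.0510) or miR-NC array 1 (adjusted p = 0.0796). SNAI1 stayed below the median of all values on every array of both groups.

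On the epithelial side CDH1, which encodes E-cadherin, read 9.61, 9.92 and 9.96 with miR-NC and 10.77, 10.75 and 10.61 with miR-203a. The arrays did not overlap, but the difference of 0.88 ± 0.46 missed the threshold in the fit that shares 1 estimate of spread over all groups (adjusted p = 0.107), and it was 0.01 against miR-205. The SDs of CDH1 within the PC3 groups were 0.19 (miR-NC) and 0.08 (miR-203a). RAB25, an epithelial GTPase, rose by 1.20 ± 0.25 from a level below the median of all values. EPCAM, ESRP1 and GRHL2, a surface molecule, a splicing regulator and a transcription factor of epithelia, were not called (0.36, 0.09 and 0.33), and GRHL2 passed without miR-203a array 2 (adjusted p = 0.0443) or miR-NC array 1 (adjusted p = 0.0393). OVOL1 and OVOL2, repressors of ZEB1, fell by 0.65 ± 0.24 and 0.68 ± 0.26. Each call was lost in 3 of the 6 fits that left out 1 array, OVOL1 without miR-203a array 1 or 2 or miR-NC array 3 (adjusted p up to 0.0689) and OVOL2 without miR-203a array 2 or 3 or miR-NC array 1 (up to 0.149).

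Of the mesenchymal products, VIM, the intermediate filament vimentin, read 9.25, 9.17 and 9.42 with miR-NC and 11.14, 11.15 and 10.60 with miR-203a. It rose by 1.69 ± 0.14 (adjusted p = 9.81e-13), and by 0.84 against miR-205, but its other probe set fell, and the mean of both changed by -0.23. CDH2, which encodes N-cadherin, was not called (0.06, adjusted p = 0.857). FN1, which encodes fibronectin, fell by 0.56 ± 0.23, on 5 of 7 probe sets. The call for FN1 was lost in 5 of the 6 fits that left out 1 array, all but the fit without miR-NC array 3, with an adjusted p up to 0.152, and its change was 0.11 with the covariate.

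The junction and keratin lists moved mostly upward against miR-NC and little against miR-205. Of 19 tested junction genes 11 rose (57.9%, beside 31.1% of all genes) and 4 fell (21.1%, beside 25.0%), while against miR-205 1 was higher (5.26%, beside 11.9%) and 4 lower (21.1%, beside 12.9%). TJP3, a scaffold of tight junctions, read 6.79, 6.77 and 6.83 with miR-NC and 8.36, 8.19 and 8.14 with miR-203a, and rose by 1.43 ± 0.17 and by 0.79 against miR-205. CLDN7, a tight junction claudin, rose by 2.44 ± 0.31 but differed by 0.34 from miR-205 (adjusted p = 0.460). The desmosomal genes DSP and DSG2 fell by 0.85 ± 0.12 and 0.37 ± 0.11, and by 1.17 and 0.43 against miR-205. Of 17 keratins and epithelial surface genes 13 rose (76.5%, beside 31.1%) and 0 fell, with a median of 1.80, while against miR-205 2 were higher and 0 lower, with a median of 0.22. KRT7, a keratin of simple epithelia, read 6.80, 7.36 and 7.46 with miR-NC and 10.94, 10.71 and 10.49 with miR-203a, and it rose by 3.50 ± 0.19 on all 4 probe sets and by 0.70 against miR-205. KRT8, another keratin of simple epithelia, rose by 3.26 ± 0.18 with 0.28 against miR-205 (adjusted p = 0.277). SPINT1, an inhibitor of membrane serine proteases, rose by 3.44 ± 0.36. ITGB4, the integrin subunit of hemidesmosomes, rose by 2.88 ± 0.26 on 4 of 5 probe sets, and by 0.88 against miR-205. Without the probe sets whose names end in x_at or s_at, ITGB4 rose by 0.25 without a call (adjusted p = 0.357).

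Across the whole array 8754 of the 15599 genes were called (56.1%), 4847 higher and 3907 lower. At least 2-fold changes were called for 2146 genes upward (13.8%) and 1114 downward (7.14%). Against PC3 miR-205, 3862 genes were called (24.8%), 1855 higher and 2007 lower, of which 241 (1.54%) and 487 (3.12%) were at least 2-fold. A test against a change of at least 2-fold (limma treat) called 1288 genes against miR-NC, 995 higher and 293 lower, and the fit with the covariate called 1329, of which 1041 were higher and 288 lower.

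Among genes with both PC3 group means above the median of all values and no overlap, the highest rises were led by ribosomal protein genes. RPL29, of the large ribosomal subunit, read 5.97, 7.12 and 7.46 with miR-NC and 12.02, 11.57 and 11.45 with miR-203a. That is a rise of 4.83 ± 0.25 (adjusted p = 3.94e-17), or 28.5-fold, with 1.01 against miR-205. RPL18 and RPS9 rose by 4.64 ± 0.21 and 4.16 ± 0.33, COL6A2, a collagen VI chain, by 4.40 ± 0.34 and PI3, the elastase inhibitor elafin, by 4.13 ± 0.23. All 5 were also higher than with miR-205, by 0.96 to 1.37. The miR-NC arrays of these genes spread over more than the miR-203a arrays, as the 5-prime GAPDH probe set does. With the covariate RPL29, RPL18 and PI3 were still called higher, by 1.83, 2.69 and 2.65.

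Over all genes tested the lowest change was -3.69. Among called genes with both PC3 group means above the median of all values and no overlap, the lowest changes were led by EBF1. EBF1, a B-lineage transcription factor, read 8.15, 8.47 and 8.37 with miR-NC and 5.33, 5.13 and 5.43 with miR-203a. It fell by 3.03 ± 0.20 (adjusted p = 9.54e-15) on all 3 probe sets, by 1.87 against miR-205, and by 2.44 with the covariate. SLC26A5-AS1, an antisense transcript, read 8.20, 7.83 and 7.49 with miR-NC and 5.05, 4.69 and 5.39 with miR-203a, and fell by 2.80 ± 0.21, yet it was 0.99 higher than with miR-205. VSIG1, a junctional immunoglobulin protein of stomach epithelium, fell by 2.71 ± 0.21 and by 0.83 against miR-205. ZNF682, a zinc finger gene, fell by 2.69 ± 0.31 and TMEM178A, a transmembrane protein, by 2.52 ± 0.26. For both, the difference from miR-205 was not called (-0.75 and -0.39).

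Genes of protein synthesis, energy metabolism and protein breakdown were mostly higher against miR-NC. Of 51 cytosolic ribosomal protein genes 37 rose (72.5%, beside 31.1% of all genes) and 2 fell, with a median of 0.79, and 25 were higher than with miR-205 (49.0%, beside 11.9%) and 0 lower. RPL8, of the large ribosomal subunit, read 8.42, 8.76 and 9.11 with miR-NC and 12.66, 12.61 and 12.28 with miR-203a, and rose by 3.75 ± 0.18. Ribosomal protein genes have many near-identical pseudogene copies, so a probe set may read more than 1 of them. Of 57 oxidative phosphorylation genes 44 rose (77.2%) and 2 fell, with a median of 0.94, and 28 were higher than with miR-205 (49.1%). The complex I subunits NDUFB7, NDUFA13 and NDUFV1 rose by 3.42 ± 0.25, 3.36 ± 0.21 and 3.27 ± 0.19, and by 1.29, 1.12 and 0.74 against miR-205. Of 27 proteasome subunits 23 rose (85.2%) and 0 fell, with a median of 1.05, and 13 were higher than with miR-205 (48.1%). PSMB3, of the catalytic core, rose by 3.28 ± 0.16 and PSMD8, of the regulatory lid, by 2.93 ± 0.16. Of 29 translation factors 16 rose (55.2%) and 3 fell (10.3%, beside 25.0% of all genes), among them EIF3G by 2.81 ± 0.18 and EIF3I by 1.89 ± 0.12. The median of that list was 0.53, but -0.09 without the probe sets whose names end in x_at or s_at.

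For other metabolic and stress genes the difference from miR-205 was smaller or turned. Of 19 glycolysis genes 12 rose (63.2%, beside 31.1% of all genes) and 2 fell. Against miR-205 1 was higher (5.26%, beside 11.9% of all genes) and 3 were lower (15.8%, beside 12.9%). GAPDH itself rose by 3.05 ± 0.17 and PKM, pyruvate kinase, by 2.90 ± 0.19, and neither was called against miR-205 (0.29 and 0.48), while PDK1, a kinase that inhibits pyruvate dehydrogenase, fell by 0.47 ± 0.14. ACTB, the other control gene, was not called through its brightest probe set (0.09, adjusted p = 0.443). Of 26 chaperones and stress genes 15 rose (57.7%, beside 31.1%) and 0 fell, whereas against miR-205 1 was higher (3.85%, beside 11.9%) and 6 were lower (23.1%, beside 12.9%). ATF4, the factor of the integrated stress response, rose by 1.89 ± 0.18 and PDIA3, an endoplasmic reticulum disulfide isomerase, by 1.63 ± 0.16. They differed from their miR-205 level by 0.03 and 0.02. SDF2L1, an endoplasmic reticulum chaperone cofactor, rose by 2.10 ± 0.15 and was 0.46 higher than with miR-205. Of 19 cholesterol synthesis genes 8 rose (42.1%, beside 31.1%) and 3 fell (15.8%, beside 25.0%). Compared with miR-205, 5 were higher (26.3%, beside 11.9%) and 1 was lower (5.26%, beside 12.9%). EBP, a sterol isomerase, rose by 2.50 ± 0.24, PMVK, a mevalonate pathway kinase, by 1.77 ± 0.22, and FDPS, which makes farnesyl diphosphate, by 1.36 ± 0.11.

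Cell cycle genes were mostly not called against miR-NC in the fit that shares 1 estimate of spread over all groups. The arrays did not overlap, with miR-203a higher, for 16 of 35 G2/M and 14 of 38 G1/S genes, beside 33.6% of all genes. With miR-203a lower they did not overlap for 13 and 10, beside 29.0%. Of 35 genes of G2/M and mitosis 9 rose (25.7%, beside 31.1% of all genes) and 1 fell (2.86%, beside 25.0%), while 13 were higher than with miR-205 (37.1%, beside 11.9%) and 0 lower (beside 12.9%). PLK1, a mitotic kinase, read 4.96, 5.54 and 5.21 with miR-NC and 7.49, 7.42 and 7.44 with miR-203a, and it rose by 2.22 ± 0.33 and by 1.47 against miR-205. CDC20, an activator of the anaphase-promoting complex, rose by 1.48 ± 0.45 and by 1.28 against miR-205. Of 38 genes of G1/S and DNA replication 11 rose (28.9%) and 2 fell (5.26%), beside 31.1% and 25.0% of all genes. E2F2, a factor that drives S-phase genes, rose by 2.11 ± 0.23, MCM7, of the replicative helicase, by 2.04 ± 0.32, and CCNE1, which encodes cyclin E1, by 0.85 ± 0.16. CCNE1 was lower by 0.89 with miR-203a in SKOV3.

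Interferon-stimulated and inflammatory genes gave different pictures against miR-NC and against miR-205, which is itself a transfected microRNA. The interferon list had a median of 0.33 against miR-NC and -2.91 against miR-205. IFIT1 was 3.51 higher with miR-205 than with miR-NC (adjusted p = 1.89e-12, limma). Of 37 interferon-stimulated genes 16 rose (43.2%, beside 31.1% of all genes) and 4 fell (10.8%, beside 25.0%) against miR-NC, while 36 were lower than with miR-205 (97.3%, beside 12.9%). IFIT3, an interferon-induced RNA-binding protein, read 9.97, 9.83 and 9.67 with miR-NC and 8.67, 8.63 and 9.0 with miR-203a, and was 12.59 on average with miR-205. It fell by 1.06 ± 0.16 against miR-NC and by 3.83 against miR-205, with 1 probe set in each direction. SAMD9L, an antiviral growth inhibitor, and IFI44L, another interferon-induced gene, fell by 1.01 ± 0.24 and 0.78 ± 0.25, and IFI44L lost its call without miR-203a array 2 (adjusted p = 0.0594). Of 27 cytokine and NF-kB feedback genes 10 rose (37.0%) and 4 fell (14.8%), and 9 were lower than with miR-205 (33.3%, beside 12.9%) and 0 higher. CXCL5, a neutrophil chemokine, read 8.07, 8.18 and 8.17 with miR-NC and 6.33, 6.58 and 6.99 with miR-203a, and fell by 1.51 ± 0.14. CXCL3, of the same family, fell by 0.51 ± 0.17, and CCL20, which attracts CCR6-bearing lymphocytes, by 1.26 ± 0.27, though its change was 0.057 with the covariate.

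Of 25 TGF-beta, BMP and bone metastasis genes 7 rose (28.0%) and 8 fell (32.0%), near the 31.1% and 25.0% of all genes. ID1, a BMP-responsive inhibitor of helix-loop-helix factors, read 4.95, 5.47 and 5.55 with miR-NC and 8.78, 8.78 and 8.44 with miR-203a, and rose by 3.35 ± 0.21 and by 0.63 against miR-205. SMAD2, a TGF-beta signal transducer, and NOG, a secreted BMP antagonist, fell by 0.56 ± 0.12 and 0.50 ± 0.13, and SMAD2 was lower in HEY and SKOV3 as well (-0.44 and -0.47). Of 16 EGF receptor ligands and receptors 5 rose and 5 fell (31.2% each), also near the shares of all genes, 31.1% and 25.0%. EGF fell by 0.68 ± 0.15 and CBL, the ubiquitin ligase that removes the receptor, by 0.50 ± 0.13, with CBL lower in HEY and SKOV3 too (-0.40 and -0.52), although averaged over all its probe sets CBL changed by 0.29 in PC3. BTC, the ligand betacellulin, fell by 0.63 ± 0.25, a call kept in 2 of the 6 fits that left out 1 array, those without miR-203a array 3 or miR-NC array 3 (adjusted p up to 0.106 in the others).

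Of 29 AKT, PI3K and insulin signalling genes 13 rose (44.8%) and 5 fell (17.2%), beside 31.1% and 25.0% of all genes. MTOR, the growth kinase, rose by 1.06 ± 0.11 and PIK3CD, a PI3-kinase catalytic subunit, by 1.04 ± 0.14, while RICTOR, which directs MTOR to AKT, fell by 0.71 ± 0.13. Of 20 Hippo pathway and YAP target genes 7 rose (35.0%) and 2 fell (10.0%), beside 31.1% and 25.0% of all genes. NF2, the merlin tumour suppressor, rose by 1.56 ± 0.26 on 7 of 8 probe sets, and LATS1, the kinase that restrains YAP, fell by 1.02 ± 0.17. Of 27 AP-1 and immediate early genes 8 rose (29.6%) and 6 fell (22.2%), near the 31.1% and 25.0% of all genes, and 10 were lower than with miR-205 (37.0%, beside 12.9%) and 0 higher (beside 11.9%). FOSL2, an AP-1 subunit, fell by 0.70 ± 0.13, and ZFP36 and ZFP36L1, which destabilize AU-rich messages, fell by 0.90 ± 0.24 and 0.58 ± 0.13. FOSL2 was lower in HEY and SKOV3 too (-0.45 and -0.89).

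Of 27 actin and focal adhesion genes 12 rose (44.4%) and 4 fell (14.8%), beside 31.1% and 25.0% of all genes. PFN1, the actin monomer binding protein profilin, rose by 3.42 ± 0.18 and MYL9, a regulatory myosin light chain, by 2.54 ± 0.18. Without the probe sets whose names end in x_at or s_at, MYL9 changed by 0.30 without a call. Of 24 integrins, laminins and collagens 9 rose (37.5%) and 7 fell (29.2%), beside 31.1% and 25.0% of all genes. The paired collagen IV chains went apart, COL4A1 lower by 0.83 ± 0.11 and COL4A2 higher by 0.91 ± 0.18. The mean of the COL4A1 probe sets changed by -0.02, without a call.

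Of 42 polycomb and chromatin enzymes 18 fell (42.9%, beside 25.0% of all genes) and 10 rose (23.8%, beside 31.1%). Against miR-205 8 were lower (19.0%, beside 12.9%) and 9 higher (21.4%, beside 11.9%). CHD9, a chromatin remodeller, read 9.40, 9.44 and 9.21 with miR-NC and 7.64, 7.63 and 8.13 with miR-203a, and fell by 1.55 ± 0.17 on 4 of 6 probe sets and by 1.52 against miR-205. KMT2A, a histone H3 lysine methyltransferase, fell by 0.99 ± 0.15, though 2 of its 10 probe sets were higher and 3 lower, and KDM1A, a lysine demethylase, rose by 1.58 ± 0.20. Of 49 splicing factors 20 rose (40.8%) and 14 fell (28.6%), beside 31.1% and 25.0% of all genes. SNRPD2, a core spliceosomal protein, rose by 1.66 ± 0.15, and SRSF11 and RBM39, arginine-serine-rich regulators, fell by 0.84 ± 0.15 and 0.52 ± 0.10. Of 14 genes of the microRNA machinery 6 fell (42.9%) and 4 rose (28.6%), beside 25.0% and 31.1% of all genes. AGO3, an Argonaute protein, fell by 0.86 ± 0.14 on all 4 probe sets, and TARBP2, a partner of Dicer, rose by 1.31 ± 0.14.

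Of 28 apoptosis regulators 8 rose (28.6%) and 7 fell (25.0%), near the 31.1% and 25.0% of all genes, and 9 were lower than with miR-205 (32.1%, beside 12.9%). BCL2L11, the death-promoting protein BIM, read 10.43, 10.35 and 10.29 with miR-NC and 8.22, 8.81 and 8.65 with miR-203a. It fell by 1.80 ± 0.18 (adjusted p = 8.85e-11) without overlap on 4 of 6 probe sets, and by 1.32 against miR-205. CASP8, the initiator caspase of death receptors, fell by 0.86 ± 0.14 and by 0.96 against miR-205, while BAD, another death-promoting BCL2 relative, rose by 2.92 ± 0.24. Of 34 endosome and small GTPase genes 9 rose (26.5%) and 5 fell (14.7%), beside 31.1% and 25.0% of all genes. HRAS, the oncogenic GTPase, rose by 1.42 ± 0.18 and ARL1, a GTPase of the Golgi, by 0.87 ± 0.11.

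**Figure D5:**
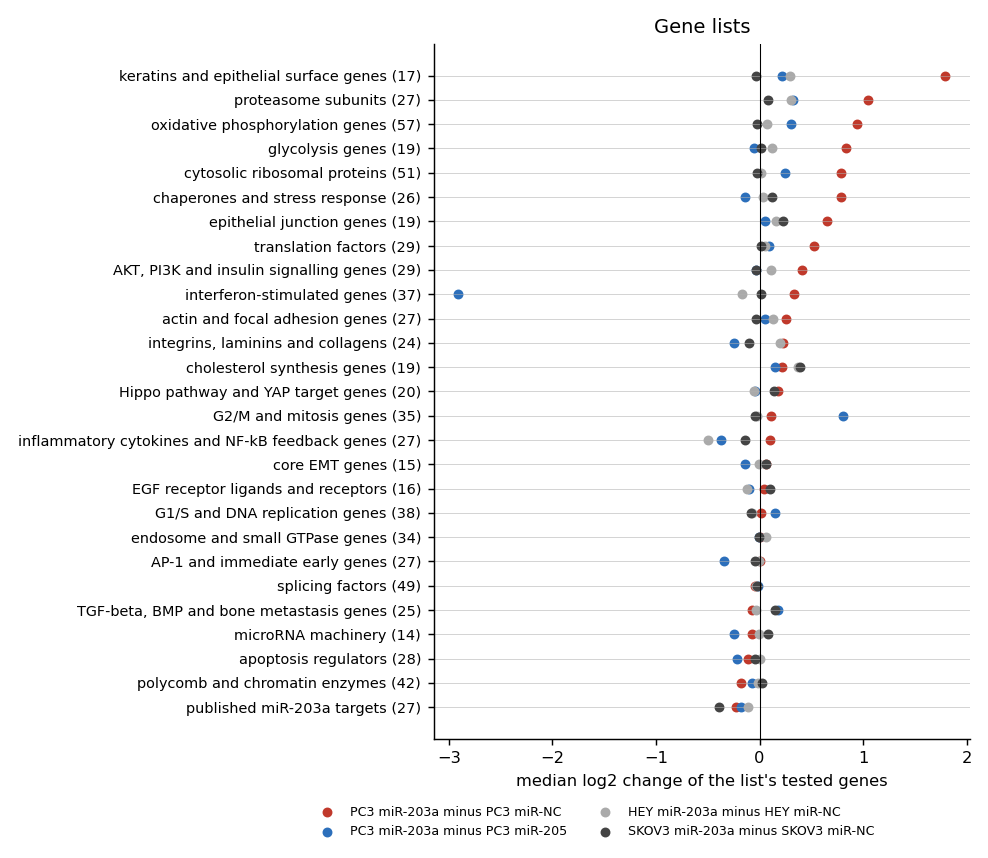
Median log2 change (horizontal axis) of the tested genes of each list (vertical axis, number tested in brackets), for miR-203a in PC3 against miR-NC (red) and against miR-205 (blue), in HEY (light grey) and in SKOV3 (dark grey). The keratin list stands at 1.80 against miR-NC and 0.22 against miR-205, the proteasome list at 1.05 and 0.32, and the interferon list at 0.33 and -2.91.

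Whether the response to miR-203a differed between lines was tested directly. The response in PC3 differed from that in HEY for 5424 genes (34.8%), 3400 of them (21.8%) toward higher in PC3, and from that in SKOV3 for 6813 genes (43.7%), 3790 of them (24.3%) toward higher in PC3. Differences of at least 2-fold toward lower in PC3 were called for 698 genes (4.47%) against HEY and 1255 (8.05%) against SKOV3, and toward higher for 1901 (12.2%) and 2143 (13.7%). With the covariate the differences called in either direction and of any size numbered 827 against HEY and 940 against SKOV3. A further set held genes with both PC3 group means above the median of all values that were not called in HEY or SKOV3. Of those called in PC3 and in both tests of the difference, EPHA7 and GPRASP1 had the lowest PC3 changes after SLC26A5-AS1 and ZNF682. EPHA7, an ephrin receptor, read 9.40, 9.79 and 9.80 with miR-NC and 7.13, 7.26 and 7.52 with miR-203a. It fell by 2.36 ± 0.20 in PC3, where HEY gave 0.25 and SKOV3 0.39, and it was 1.15 lower than with miR-205. GPRASP1, a receptor-sorting protein, read 8.32, 8.01 and 8.13 with miR-NC and 6.11, 5.49 and 5.88 with miR-203a, a fall of 2.33 ± 0.24. Both were still called lower with the covariate. Across genes, which are not independent replicates, Spearman's rho of the PC3 change was 0.45 with the HEY change and 0.11 with the SKOV3 change.

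The probe sets of a gene often did not move together. Over 31147 probe sets above the threshold of signal, 9556 were higher (30.7%) and 7524 lower (24.2%). Of 8177 genes with at least 2 such probe sets, 1371 (16.8%) had at least 1 called higher and at least 1 called lower. That was 32.4% of the 4231 genes with at least 2 called probe sets. Among the targets described above this held for 6 of 27, VEGFA, TGFA, PRKCA, AKT2, ASAP1 and CREB1. TGFA, at -0.57 through its brightest probe set, changed by 0.25 when all its probe sets were averaged. Under that average the calls named above were lost for ITGB8 (0.07), CAV1 (-0.19), AKT2 (0.05), PRKCA (-0.05), DSG2 (-0.05), BTC (-0.03), PDK1 (-0.22), FOSL2 (-0.13), ZFP36L1 (-0.19), KMT2A (-0.19) and RBM39 (-0.22). CREB1 (-0.47), CKAP2 (-0.43) and IRS1 (-0.36) were called lower and SRC (0.39), RAC1 (0.37), BIRC5 (1.14) and CDH2 (0.78) higher. TARBP2 (0.24) and ZFP36L1 (-0.44) were not called without the probe sets whose names end in x_at or s_at.

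Genes that rose and genes that fell differed in length. The 2146 genes higher by at least 2-fold had a median span of 14.7 kb in RefSeq and the 1114 lower by at least 2-fold one of 50.4 kb, against 27.2 kb for all genes tested. In 5 equal groups of 15578 genes ordered by span, the share called higher went from 39.8% in the shortest to 18.3% in the longest, and the share called lower from 14.6% to 39.5%. Spearman's rho of change and span across genes was -0.27 in PC3, -0.07 in HEY and 0.02 in SKOV3. The promoters of the higher genes, the 300 bases around the RefSeq start, had a median GC content of 66.3% and those of the lower genes 62.0%, against 64.7% for all genes with a promoter sequence.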

How the data were processed

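The deposited table holds log2 expression values of 54675 probe sets on 45 arrays; RMA is named in the submitters' processing notes, with no version given in the sources used here. Per the labels' protocols, total RNA was amplified from the 3-prime end and labelled with biotin. Gene symbols came from the platform annotation: 41091 probe sets had 1 symbol, 1801 had several, 11721 had none, and 62 were controls. The brightest probe set with 1 symbol stood for a gene, and genes whose highest group mean did not exceed 4.89 were left out.

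One limma fit (version 3.58.1, R 4.3.3) of 15 group means over the 45 arrays gave 30 residual degrees of freedom. Contrasts were tested two-sided, with Benjamini-Hochberg adjustment over the 15599 genes and a threshold of 0.05. The arrays labelled untransfected entered only the shared spread and served as no control. On simulated data for the PC3 comparison with 15599 genes, 83 of 100 genes changed by 1 log2 unit and 38 of 100 changed by 0.5 were recovered, with 6 of 15399 unchanged genes called.

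The groups, gene lists and the rules for named genes were chosen with earlier results of these data known. Named genes were the 5 highest and 5 lowest changes among called genes with both PC3 group means above the median and no overlap. Also named were the 10 lowest and 5 highest over HEY and SKOV3, and all published targets and core transition genes. Up to 4 called members of each other list that agreed against miR-NC and miR-205 were named, or else of those called against miR-NC. The extremes differing from both other lines, GAPDH and ACTB were named too. Alternatives tried were other sets of arrays, normalizations, signal thresholds, choices of probe set, variance priors, a minimum fold, the 5-prime GAPDH covariate, a replicate block and leaving out each array. Using PC3 miR-205 in place of miR-NC for the shared genes and list medians was added after seeing the data.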

Additional observations from a re-analysis of the deposited data

Results flagged for a closer look

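Of 55 genes named from the ovarian lines and the target and transition lists, 13 (23.6%) differed in their response between PC3 and both other lines in 1 direction (interaction contrasts of the limma fit, adjusted p under 0.05). Over all 15599 genes it was 4506 (28.9%), so the share is no higher than the background. Values are the PC3 response minus that of HEY and then minus that of SKOV3, in log2 units. The response was more positive in PC3 for KCTD4 (2.77 and 1.29) and IFIT1 (2.35 and 1.48), which were named for their fall in the ovarian lines and were not called in PC3. KCTD4 averaged 3.36 with miR-NC in PC3, below the median of all values. The genes named from the ovarian lines were picked by the HEY and SKOV3 changes that these contrasts subtract. A difference was thus favoured by the choice, and their calls among the 55 are a description and no further result. Among the targets it was more positive for SRC (0.90 and 2.19), RAPGEF1 (1.64 and 2.56), BANF1 (1.68 and 2.77) and PLD2 (0.98 and 1.22). It was more negative for PRKCA (-0.90 and -1.02) and EIF5A2 (-0.71 and -0.81), the latter higher with miR-203a in HEY and SKOV3 and not called in PC3. Of the transition genes ZEB1 (-1.14 and -1.27), ZEB2 (-1.77 and -1.76) and OVOL2 (-1.13 and -0.99) were more negative in PC3, and RAB25 (1.32 and 1.16) and VIM (1.17 and 1.63) more positive. ZEB2 averaged 2.73 with miR-NC in SKOV3 and OVOL2 2.54 in HEY, below the median of all values, 4.89. RAB25 lay below that median with miR-NC in PC3 (3.87), HEY (4.01) and SKOV3 (4.04). Near the bottom of the scale a fall can hardly be seen.

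Another 8 genes were named because both tests of the difference called them, so their values are a description and no further result. Upward these were RPL29 (4.17 and 4.70), RPL18 (4.27 and 4.62), COL6A2 (3.92 and 4.59) and RPS9 (3.88 and 4.18), and downward ZNF682 (-3.25 and -2.36), SLC26A5-AS1 (-2.88 and -2.79), EPHA7 (-2.61 and -2.74) and GPRASP1 (-2.31 and -2.06). With miR-NC, SLC26A5-AS1 averaged 1.75 in HEY and 2.28 in SKOV3, and ZNF682 3.47 in HEY, all below the median of all values. Over all genes the difference was called for 5424 against HEY and 6813 against SKOV3. The 5-prime GAPDH probe set differs between the PC3 groups by 4.95 and between the HEY and SKOV3 groups by 0.58 and -0.0039, and its part in these differences was not tested gene by gene.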

How the results depend on the processing

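Counts of calls kept within 1.5 times their value for miR-203a against miR-NC, at least 2-fold changes, the comparison with miR-205 and both response differences under each other set of arrays, normalization, signal threshold, choice of probe set and variance prior tried. With only the arrays of the groups compared, 290 of 541 genes higher in both ovarian lines rose in PC3 (53.6%), where the list had grown from 331. Without the arrays labelled untransfected, 349 of 463 shared lower genes fell (75.4%) and 297 of 485 shared higher genes rose (61.2%). Of 139 named genes checked, 6 gained a call and 0 lost one without the arrays labelled untransfected. With only the arrays of the groups compared, 4 gained a call and 0 lost one. Testing for more than a 2-fold change (limma treat) left 1288 genes against miR-NC under both call rules, 199 against miR-205, 533 and 832 response differences from HEY and SKOV3, 1 shared lower gene, which fell, and 0 shared higher genes. With the 5-prime GAPDH covariate there were 1329 calls, 1239 at least 2-fold, 2477 against miR-205, 827 and 940 response differences, and 63 of 292 and 66 of 327 shared lower and higher genes called, the lists being redrawn in that fit. With miR-205 in place of miR-NC 87 of 331 shared higher genes were called. Leaving out 1 PC3 array gave 7864 to 8421 calls, 3087 to 3560 at least 2-fold, 2728 to 3964 against miR-205, 4672 to 5445 and 6137 to 6760 response differences, and 211 to 228 and 177 to 199 shared genes. Same-numbered arrays of the 2 groups did not deviate together (r = -0.01, 0.04 and -0.06), while r of different numbers lay from -0.11 to 0.11. With 3 arrays a group this cannot show whether same-numbered arrays share a culture or a day, which the labels do not give. With the replicate number as a block 8786 genes were called, and no named gene gained or lost a call. Turned changes are listed only for genes called in the main comparison, in the alternative, or in both. When all probe sets of a gene were averaged, the PC3 change turned for OVOL1 (0.0545), VIM (-0.23), SOCS3 (0.32), E2F3 (0.66), VEGFA (0.62), TGFA (0.25), EIF5A2 (0.34), CBL (0.29) and IFIT3 (0.0322). Without probe sets whose names end in x_at or s_at it turned for MSI2 (0.48) and AKT2 (-0.38). With the covariate it turned for FN1 (0.11), ABL1 (-0.78), BANF1 (-1.27), CCL20 (0.057) and HOXB13 (-0.0801). Against miR-205 it turned for SLC26A5-AS1 (0.99), IFIT1 (-3.46), ITGB8 (-0.0032), PKIA (-0.25), OVOL2 (0.43), SRC (-1.28), RAPGEF1 (-0.63), CAV1 (0.24), AKT2 (-0.0474), EREG (0.29) and PRKCA (0.69). The cause was not tested. The median change of all genes was 0.056, and between -0.0001 and 0.12 under the alternatives. List medians near 0 changed sign most often, in 6 of 19 settings for AP-1 and immediate early genes, 5 for endosome and small GTPase genes and 4 each for core transition genes and EGF receptor genes. The number of arrays, 3 a group, and probe sets near the bottom of the signal range limit the precision.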

Other observations

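Gene families grouped by symbol after the values were seen, so given as descriptions with no test of the family, add to the lists above. Of 421 zinc finger genes named ZNF and a number, most of them DNA-binding repressors, 201 fell in PC3 (47.7%, beside 25.0% of all genes) and 79 rose (18.8%, beside 31.1%), with a median of -0.38. Against miR-205, 89 were lower and 17 higher, beside 12.9% and 11.9% of all genes, with a median of -0.13. In HEY 50 of the 421 were lower, beside 7.33% of all genes, and in SKOV3 13, beside 4.88%. Of 74 mitochondrial ribosomal proteins 58 rose (78.4%) and 2 fell (2.70%), with a median of 0.96. Compared with miR-205, 29 were higher and 2 lower, beside 11.9% and 12.9% of all genes. Of 14 S100 genes, small calcium-binding proteins of epithelia, 11 rose (78.6%, beside 31.1%) and 0 fell (beside 25.0%), with a median of 1.40. Compared with miR-205, 5 were higher and 0 lower, beside 11.9% and 12.9% of all genes. In HEY and SKOV3 the S100 medians were 0.23 and -0.08.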
